A study of Gallus gallus with 6 samples.

Results

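The avian beta-defensins AvBD1, AvBD2, AvBD5, AvBD8, AvBD9, AvBD10 and AvBD13 were followed over 6 Affymetrix chicken arrays. The 7 genes hold 9 of the 38439 probe sets used, and 7 of the 13051 genes that a single symbol names. The study set adipose tissue and liver beside mixtures of other tissues. Members were found by symbol in the platform's gene table, where AvBD2 is listed as DEFB4A and was matched through its RefSeq synonym and gene number. They were picked with their values on these arrays already known, so those values are given as a description and were not tested.

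All 6 samples were total RNA of male Arbor Acres chickens, a meat-type line, killed at 49 days of age. Of them 1 was adipose tissue, 1 was liver and 4 were tissue mixes, called mix 1 to mix 4, made from RNA whose tissues the labels do not list. The birds were kept and fed alike, no treatment is named, 21 tissues were taken, and the labels do not say how many birds each sample holds. The liver and adipose arrays carried their own defining genes. The 6 hepatocyte markers, such as ALB (albumin), were all brightest on liver, beside 6.81% of all genes. Of the 6 adipocyte markers, such as PLIN1 (the lipid droplet coat protein), 5 were brightest on adipose, for which the share of all genes was not counted. All 4 lung markers on the arrays also had their highest value on adipose. The surfactant genes SFTPA1 (2227.9) and SFTPA2 (2013), and HOPX (11723.3), were at least 4-fold brighter there than on any other array. Of all genes 0.993% were so. The source of the lung signals in that sample was not tested. Each sample has 1 array, and the mixes are numbered apart with their tissues unlisted, so their spread is not taken as an error of measurement.

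Beta-defensins are short, cationic, cysteine-rich peptides that damage microbial membranes and also attract immune cells. Birds carry beta-defensins as their only defensin class, and their genes lie side by side in 1 cluster. Some of the peptides are stored in the granules of heterophils, the avian counterpart of neutrophils, while others are made by epithelia and by organs such as liver and kidney. Earlier surveys of chicken tissues placed AvBD1 to AvBD7 mainly in bone marrow and airways, and AvBD8 to AvBD13 mainly in liver and the urogenital tract.

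Values are MAS5 signals, an intensity on a linear scale that the authors deposited. Differences are on the scale log2(signal + 13.3), where 13.3 is the 25th percentile of all deposited values, and a difference of 2 on it is 4-fold. The median of all values pooled was 44.1, and signals at or under it were not ordered among themselves. The hybridisation spike-ins, control RNAs added alike to all samples, differed between arrays by up to 0.92 on the log2 scale, so arrays closer than that were not ordered either. The median signal was 27 on liver and 44.8 to 58.1 on the other arrays, and the median gene lay at -0.75 on liver against the mean of the mixes. All 9 probe sets exceeded the pooled median on at least 1 array.

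The genes fell into a set that was brightest on mix 3 and a set that was brightest on liver or mix 2. AvBD1, AvBD2 and AvBD5 had their highest values on mix 3 and the next on mix 4, though for AvBD1 these arrays are not ordered. AvBD8, AvBD9 and AvBD13 were highest on liver, and AvBD10 on mix 2 with liver next. No member was highest on adipose, mix 1 or mix 4, which together were the brightest arrays for most of the genes tested. Of all genes tested 13.1% were brightest on mix 3, 6.81% on liver and 6.51% on mix 2, from which nothing is read since these values chose the members. Mix 3 and mix 4 were the 2 brightest arrays for 9.72% of all genes, and liver and mix 2 for 2.55%.

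**Figure D1:**
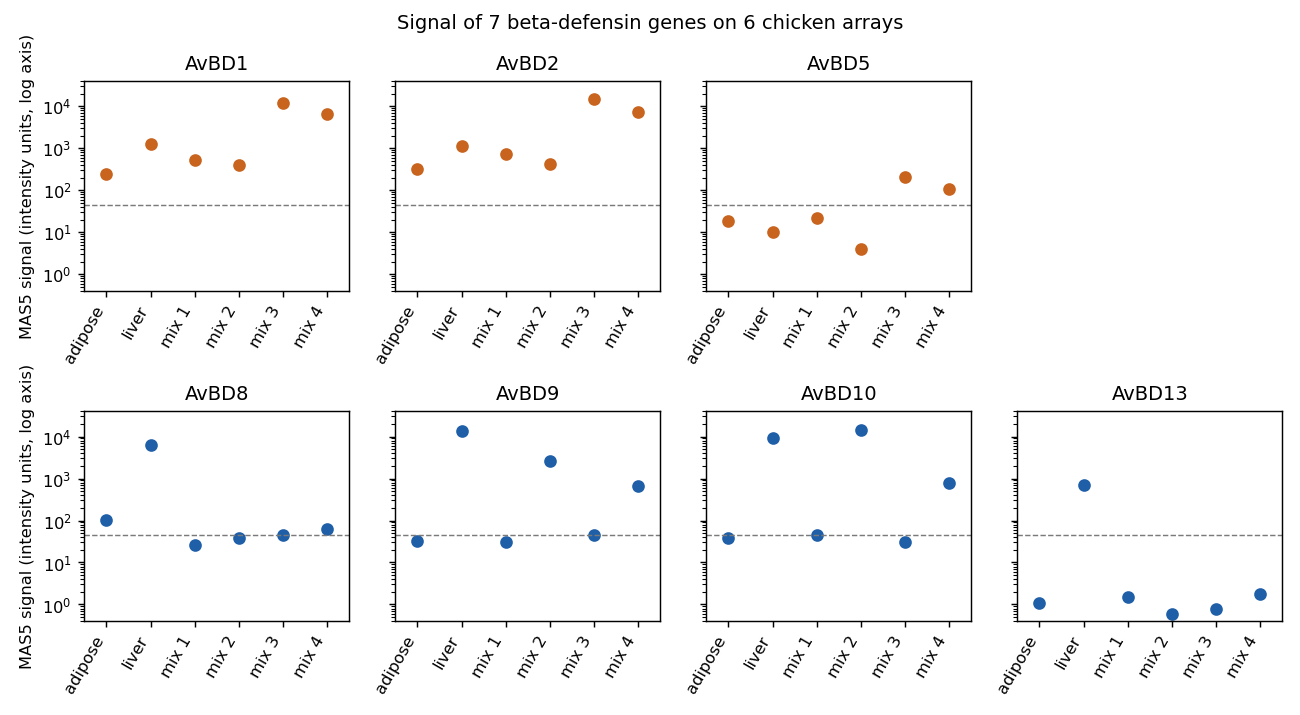
MAS5 signal (log axis, intensity units) of the 7 defensin genes, by the brighter probe set where a gene has 2, with 1 point for each array and a dashed line at the pooled median of 44.1. AvBD1, AvBD2 and AvBD5 (upper row) peak on mix 3 and mix 4, whereas AvBD8, AvBD9, AvBD10 and AvBD13 (lower row) peak on liver or mix 2.

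AvBD1 is a heterophil granule peptide. The gene (NCBI gene 395841) has a pair of probe sets, and the brighter gave 12278.5 on mix 3, 6493.7 on mix 4, 1287.3 on liver, 541 on mix 1, 391.4 on mix 2 and 238.3 on adipose. Mix 3 and mix 4 were high and the other 4 arrays lay far below them, but each of the 6 was above the pooled median. The mixes averaged 4926 ± 5666 (SD, n = 4), an SD above the mean. Mix 3 was 1.89-fold brighter than mix 4, a log2 difference of 0.92 that does not exceed the spike-ins' largest difference, and 9.54-fold brighter than liver. Liver was 5.40-fold brighter than adipose.

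The second AvBD1 probe set was fainter and also had its highest value on mix 3 and its lowest on adipose. It gave 421.5 on mix 3, 115.9 on mix 4, 74.9 on liver, 54.9 on mix 1, 18.5 on mix 2 and 12.8 on adipose. Its ending marks probes that may also bind other transcripts. Here mix 3 was 3.64-fold brighter than mix 4, a step beyond the spike-ins' largest difference, unlike that of the brighter probe set. Liver was not ordered against mix 4 or mix 1 by this fainter probe set.

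AvBD2, another heterophil peptide (NCBI gene 395840), has 1 probe set. The signal was 15199.9 on mix 3, 7263.2 on mix 4, 1120.3 on liver, 729.2 on mix 1, 432.6 on mix 2 and 323 on adipose. The profile followed that of AvBD1, with a step of 2.09-fold from mix 4 to mix 3 (log2 1.06). The mix 3 value stood at 98.0% of the brightest signal on that array, near the top of its range, where ratios can be compressed. That of AvBD1 stood at 79.1%.

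AvBD5 (NCBI gene 414340) has a faint probe set that exceeded the pooled median on 2 arrays. These were mix 3, at 212.3, and mix 4, at 104.5. Mix 1 gave 21.8, adipose 18.8, liver 10.3 and mix 2 gave 4.1, and no order can be read among those 4. Mix 3 was 2.03-fold brighter than mix 4 (log2 0.94), far from the top of the array's range.

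AvBD8 (NCBI gene 414875) was highest on liver by both of its probe sets. The brighter gave 6122.6 on liver, 103.2 on adipose, 63.5 on mix 4, 45 on mix 3, 37.6 on mix 2 and 26.6 on mix 1. Liver led adipose by 59.3-fold, while the 4 mixes averaged 43.2 ± 15.5 (SD, n = 4). Adipose lay above all 4 mixes, but by less than the spike-ins' largest difference over mix 4. The other AvBD8 probe set gave 267.9 on liver and 4.6 to 34.6 on the other 5 arrays, at or under the pooled median. It put the same array first, with a smaller lead of 2.55 against 5.72 on the log2 scale.

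**Figure D2:**
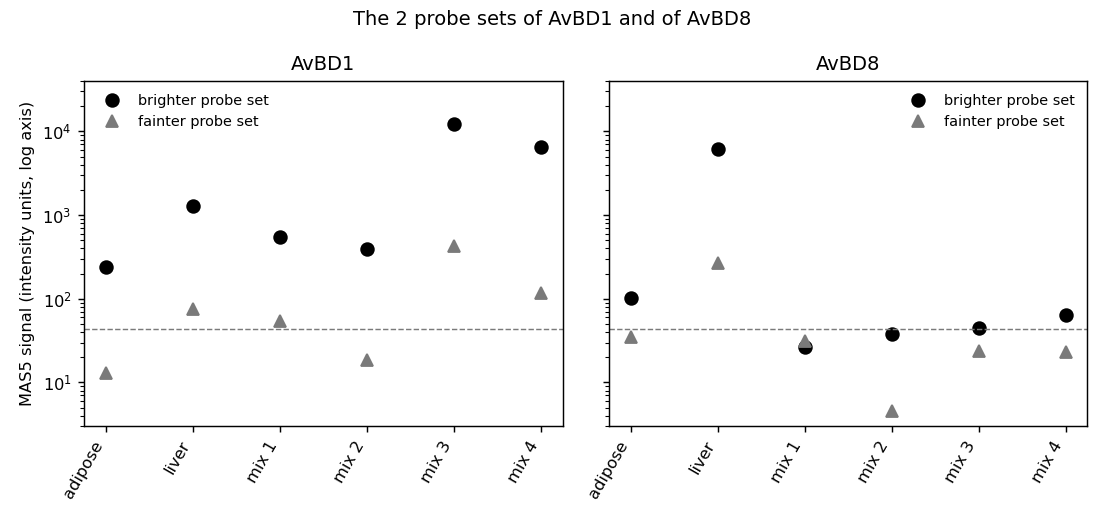
MAS5 signal (log axis, intensity units) on the 6 arrays by the brighter (circles) and the fainter (triangles) probe set of AvBD1 and of AvBD8, with a dashed line at the pooled median of 44.1. Both probe sets of AvBD1 have their highest value on mix 3 and both of AvBD8 on liver, and the fainter ones show other step sizes.

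AvBD13 (NCBI gene 414877) stood above the pooled median on liver only. Its signal was 690.2 there, 1.8 on mix 4, 1.5 on mix 1, 1.1 on adipose, 0.8 on mix 3 and 0.6 on mix 2. The 5 lower values are far under the 25th percentile of 13.3 and have no order. The lead of 5.54 on the log2 scale depends on the added 13.3, and was 7.95 with a pseudocount of 1 and 3.97 with values floored at the pooled median.

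AvBD9 (NCBI gene 414343), an epithelial antimicrobial peptide, was bright on 2 arrays. Its signal was 13740.9 on liver, 2585.3 on mix 2, 646 on mix 4, 46.3 on mix 3, 32.3 on adipose and 31.4 on mix 1. Liver, mix 2 and mix 4 were well separated, and the other 3 lay near the pooled median. Liver was 5.32-fold brighter than mix 2 (log2 2.40). The liver value stood at 85.3% of the brightest signal on that array, so the ratio may be compressed.

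AvBD10 (NCBI gene 414341) reached its highest signal outside liver. Its signal was 14212.4 on mix 2, 9215 on liver, 775.8 on mix 4, 44.1 on mix 1, 38.1 on adipose and 30.5 on mix 3. Mix 2 was 1.54-fold brighter than liver, a log2 difference of 0.62 within the spike-ins' range, so these arrays are not ordered. The mix 2 value stood at 77.7% of the brightest signal on that array, so this ratio may be compressed too. Against the median gene, which lay at -0.58 on liver relative to mix 2, AvBD10 was at -0.62. With the other scalings the difference was -0.45 (quantile), -0.18 (trimmed mean) or -0.51 (spike-ins). AvBD9, on the same pair of arrays, stood at 2.40, and between 2.18 and 2.85 with those scalings.

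The hepatocyte markers as a list had another balance across that pair than AvBD10. The summed signal of the 6 hepatocyte markers was 80018.7 on liver, 7441.1 on mix 2, 8171.1 on mix 4 and 181.4 to 604.3 on the other 3 arrays. FGB, the fibrinogen beta chain, is on this list and gave 14451.7 on liver and 4258.6 on mix 2. It alone of the 6 had both arrays at least 4-fold above the rest, as AvBD10 did, beside 0.197% of all genes. Of the 8 kidney markers 6 were brightest on mix 2, with a summed signal of 11841.5 there, 4878 on mix 1 and 197.6 to 546.5 on the other 4 arrays. Of the sum on mix 1, CALB1 alone gave 4056.5. The 7 pancreas markers and the 4 heart markers tested, of 5 on the arrays, were all brightest on mix 2 as well. Over all genes 6.51% were brightest on mix 2. Of 11 testis markers on the arrays 5 were tested, the rest being at or under the pooled median on every array. These 5 were summed to 2252.8 on mix 2 and 2885.5 on mix 4, against 62.3 to 173.2 elsewhere. The part of any of these cells in the signals of AvBD9 and AvBD10 was not tested. In such RNA, fewer cells of a type and less RNA per cell cannot be told apart.

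A lead was counted where 1 array was at least 4-fold brighter than each of the other 5. AvBD8 (5.72), AvBD13 (5.54) and AvBD9 (2.40) had one, all 3 on liver, and the next member was AvBD2 at 1.06. Of the 11679 genes tested 8.12% had such a lead on any array. By array it was 1.34% on liver, 0.993% on adipose, 1.55% on mix 1, 0.642% on mix 2, 0.522% on mix 3 and 3.07% on mix 4. The median lead was 1.06 for the members and 0.36 for all genes. These shares are background only, since the members were chosen with their leads known. Without mix 4 the count was 6, as AvBD1, AvBD2 and AvBD5 joined on mix 3. Without mix 3 it was 5, as AvBD1 and AvBD2 joined on mix 4. Without mix 2 it was 4, as AvBD10 joined on liver.

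**Figure D3:**
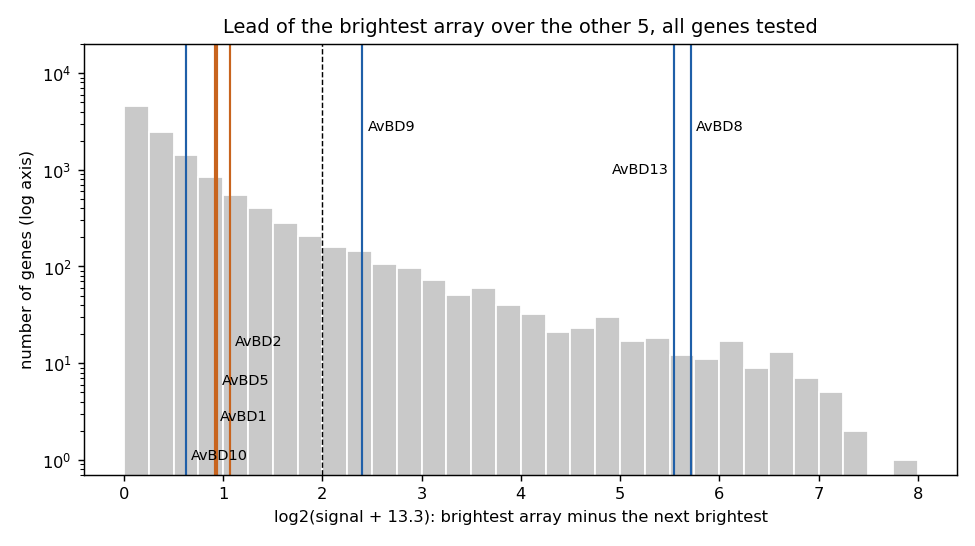
Number of genes (log axis) by the lead of the brightest array over the next brightest, on the log2(signal + 13.3) scale, for the 11679 genes tested, with the 7 defensins as vertical lines (blue: brightest on liver or mix 2, orange: brightest on mix 3) and the 4-fold lead dashed. AvBD8, AvBD9 and AvBD13 lie beyond the dashed line and the other 4 before it.

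On adipose tissue AvBD1, AvBD2 and AvBD8 were above the pooled median and the other 4 members under it. Against the mean of the mixes 4 of 7 were at least 4-fold lower, namely AvBD1 (-3.03), AvBD10 (-2.995), AvBD2 (-2.87) and AvBD9 (-2.51), beside 3.6% of all genes. No member was at least 4-fold higher, beside 2.61% of all genes. Without mix 2 the count was 2, as AvBD9 and AvBD10 dropped out. Without mix 3 it was 3, as AvBD2 came to -1.995, just short of 4-fold. AvBD1 and AvBD2 had their lowest values on adipose, but by less than the spike-ins' largest difference under mix 2. AvBD5 stood at -0.98, AvBD13 at -0.01, and AvBD8, the only member above the mean of the mixes, at 1.09. The SD over the mixes was 2.48 for AvBD1, 2.48 for AvBD2, 2.82 for AvBD9 and 3.90 for AvBD10, which shows how unlike the mixes are. With 1 array against 4 an exact permutation test has too few arrangements to reach a small p, so none was run.

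On liver 4 of 7 were at least 4-fold higher than the mean of the mixes, beside 3.01% of all genes. They were AvBD8 (6.80), AvBD9 (5.73), AvBD13 (5.604) and AvBD10 (4.49). None was at least 4-fold lower, beside 8.96% of all genes, although AvBD5 passed that line without mix 2 (-2.05 against -1.43). AvBD1 stood at -0.66 and AvBD2 at -1.12, close to the median gene at -0.75, and AvBD1 turned to 0.20 without mix 3. AvBD8, AvBD9 and AvBD13 lay above each of the 4 mixes. Against adipose tissue directly, liver was at least 4-fold higher for 5 members, AvBD1, AvBD8, AvBD9, AvBD10 and AvBD13, beside 3.82% of all genes.

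Among the members the split ran along the order of the genes in the cluster. In the RefSeq table of the chicken assembly bGalGal1.mat.broiler.GRCg7b, 14 defensin genes follow each other with no other protein-coding gene between them, from AvBD13 at one end to AvBD14 at the other. The table was used for names and order alone, because no source used here names the build behind the arrays. AvBD13, AvBD12, AvBD11, AvBD10, AvBD9 and AvBD8 come first, then AvBD7, AvBD6, AvBD2, AvBD1, AvBD3, AvBD5 and AvBD4. All 4 members in the first stretch were at least 4-fold brighter on liver than on mix 3 (5.64 to 7.85 on the log2 scale), beside 4.66% of all genes. All 3 members in the second were at least 4-fold brighter on mix 3 than on liver, with liver minus mix 3 at -3.24 for AvBD1, -3.26 for AvBD5 and -3.75 for AvBD2, beside 9.2% of all genes. The members were picked with these values known, and the stretches are divided where the values change. Nothing is therefore read from these counts beside the shares.

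The 6 measured defensins that are not members lie in the same stretches. AvBD3, AvBD4, AvBD6 and AvBD7, all of the second stretch, also had their highest values on mix 3, with liver minus mix 3 at -2.01, -5.18, -5.12 and -3.59. AvBD4 gave 2392.7 on mix 3 and 394.3 on mix 4, and AvBD6 gave 7725.5 and 1861.9. Mix 3 was thus 6.07-fold and 4.15-fold brighter than mix 4 for these. AvBD7 gave 13550.6 and 5777.8, a step of 2.35-fold. AvBD11 and AvBD12, inside the first stretch, were not bright on liver, at 15.1 and 5.5. AvBD11 was highest on mix 2, at 137.3, while AvBD12, at 56 on mix 2 and 32.1 on mix 3, had no array set apart. The other 2 probe sets of AvBD11 stayed at or under 13.7 on every array. AvBD14 was not analysed here.

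The genes that flank the cluster varied less than the members did. Of the 5 protein-coding genes on each side 8 were tested, and none had a 4-fold lead. Over all genes 8.12% had one, so among so few genes nothing is read from this count. Their whole range over the 6 arrays was 1.11 to 3.11 on the log2 scale, against 3.70 to 8.34 for the members, which were picked with their values known. Of the defensins that are not members, AvBD12 (1.88) and AvBD11 (2.48) had ranges inside that of the flanking genes and AvBD3 (3.19) one beside it. CTSB, a lysosomal protease gene beside AvBD13, gave 2660 to 5753.8. TRAM2, a gene of collagen synthesis on the far side, gave 305.3 to 765.3.

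**Figure D4:**
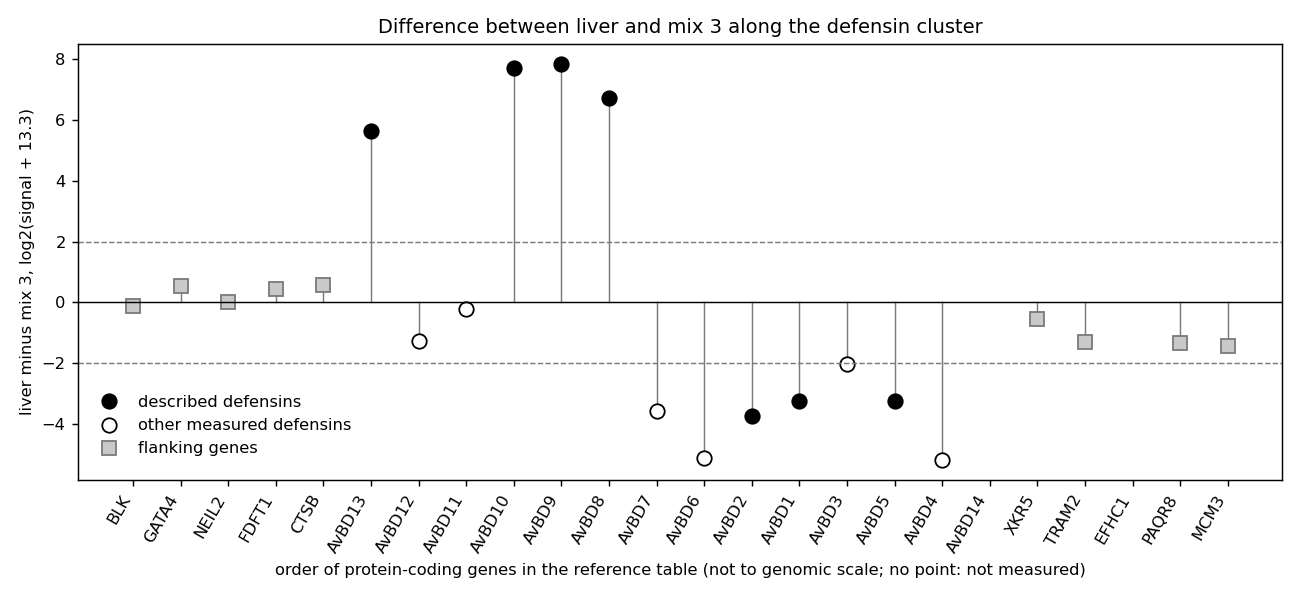
Difference between liver and mix 3, on the log2(signal + 13.3) scale, for the defensin genes and 5 protein-coding genes on each side, in their order in the reference table (not to genomic scale). Filled circles are the 7 members, open circles the 6 other measured defensins, squares the flanking genes, and dashed lines mark 4-fold. The 4 members from AvBD13 to AvBD8 lie above the upper line and the 3 members from AvBD2 to AvBD5 below the lower one.

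Some genes outside the family had nearly the same profile. Likeness was the root mean square difference over the 6 arrays, on the log2 scale after each gene's own mean was taken off, among 11678 other genes. Since it rests on 6 arrays that all genes share, it is a description. For AvBD1 the nearest were LECT2 (0.15), listed by RefSeq also as MIM1, a granule protein of immature myeloid cells, then the cathelicidin CATH1 (0.15), a heterophil antimicrobial peptide, and AvBD7 (0.17). For AvBD2 they were AvBD1 (0.21), AvBD7 (0.25) and CATH1 (0.29). CATH1 gave 14577.2 on mix 3, 7022.5 on mix 4, 1251.2 on liver, 491.9 on mix 1, 394.1 on mix 2 and 202.2 on adipose. LECT2 gave 14282.6, 8629.9, 1725.6, 690.3, 526.6 and 238.8 on the same arrays. These values also lie near the top of the range of mix 3.

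AvBD5 had other neighbours. RUNX2 (0.26), a transcription factor of bone-forming cells, SLC9B2 (0.27), a sodium/proton exchanger, and LOC424199 (0.36) came nearest. Among the defensins AvBD3 stood at place 39 (0.60), AvBD2 at 491 (0.95) and AvBD1 at 1176 (1.08), while seen from AvBD1 the same distance put AvBD5 at place 35. With 4 of its 6 arrays under the pooled median, the profile of AvBD5 is poorly measured. RUNX2 gave 375.9 on mix 3 and 213.6 on mix 4, and 27.6 to 85 on the other 4.

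Among the liver members, AvBD8 came nearest to LOC423629 (0.35), to the complement gene C8A (0.41) and to TDO2 (0.42), which starts tryptophan breakdown. AvBD13 came nearest to AWAT1 (0.13), SPIA3 (0.17) and TMPRSS6 (0.33), a liver protease that restrains hepcidin in mammals. Off liver AvBD13 gave 0.6 to 1.8, too faint to be ordered, so its profile rests on the liver value alone. SPIA3 (0.9 to 6) and TMPRSS6 (2.2 to 12.7) were faint there too, while AWAT1 gave 51.7 to 72.4. The distances from AvBD13 therefore depend on the pseudocount, and likeness with other pseudocounts was not tested. For AvBD9 the nearest was FGB (0.36), the fibrinogen beta chain, then the creatine synthesis enzymes GATM (0.64) and GAMT (0.76). The same FGB (0.79) and GATM (0.87) were nearest to AvBD10, followed by AvBD9 (1.00). FGB gave 14451.7 on liver, 4258.6 on mix 2 and 917.6 on mix 4, while FGA, another fibrinogen chain, gave 14803.2, 167.5 and 240.4. GATM gave 2557 on liver and 1743.7 on mix 2. AvBD9 and AvBD10 thus came nearest to genes that are bright on both liver and mix 2, whereas AvBD8 and AvBD13 came nearest to genes at 567.3 to 5708.7 on liver and at most 72.4 on the other arrays.

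**Figure D5:**
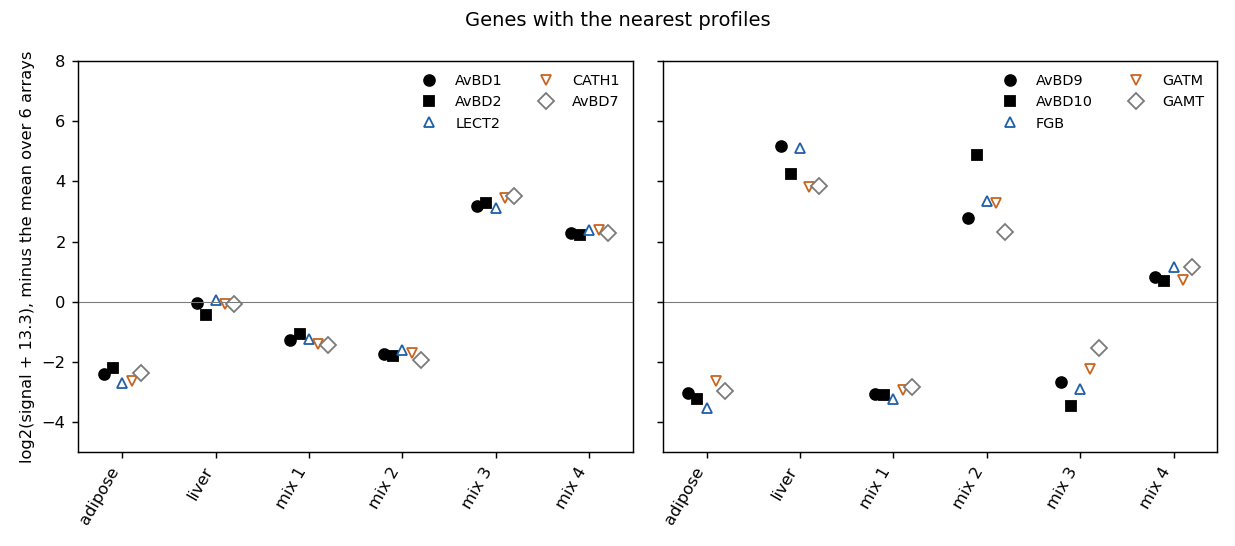
Profiles on the log2(signal + 13.3) scale after subtracting each gene's mean over the 6 arrays, for AvBD1 and AvBD2 with LECT2, CATH1 and AvBD7 (left) and for AvBD9 and AvBD10 with FGB, GATM and GAMT (right). On the left all 5 genes peak on mix 3 and mix 4, and on the right they peak on liver and mix 2, where AvBD10 stands highest of the 5 on mix 2.

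Myeloid genes had their highest value on mix 3 more often than on any other array. Of 23 tested genes of granulocytes and myeloid cells 12 had it on mix 3, beside 13.1% of all genes. On mix 4 it was 0, for which the share of all genes was not counted. Among the 12, PTPRC (0.15), CSF2RA (0.75), NCF1C (0.85), RAC2 (0.87) and CYBB (0.88) led by less than the spike-ins' largest difference. For these genes mix 3 is not ordered against the next array. The 3 with a 4-fold lead on mix 3 were MYB, a transcription factor of blood precursors (154 on mix 3, at most 5.9 elsewhere), the eosinophil peroxidase EPX (1600.8, then 198.5 on mix 4) and the granulocyte growth factor receptor CSF3R (411.8, then 68.6 on mix 4). EPX, MMP9, a granule protease (4649.8 on mix 3, 1666.9 on mix 4), and S100A12, a calcium-binding protein (10238.9 and 2844.3), had both mixes at least 4-fold above the other 4 arrays, as AvBD1 and AvBD2 did. Of all genes 0.342% had that pattern, and 0.197% had it for liver and mix 2, as AvBD10 did. These were 3 of the 23, and the rest of the list lacked it, among them SPI1, a myeloid transcription factor, with 2695.3 on liver and 2662.7 on mix 3. The summed signal of the list was 36397 on mix 3, 12904.2 on mix 4 and 10517.7 to 15906.6 on the other 4.

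Markers of other cells were also high on these arrays. Of 11 red-cell lineage markers 8 had their highest value on mix 3, beside 13.1% of all genes. HBAD and HBE led there by 0.19 and 0.41 on the log2 scale, so mix 3 and mix 4 are not ordered for them. Of the 11, 4 had both mixes at least 4-fold above the other arrays, beside 0.342% of all genes. The summed signal of the 11 was 45802.3 on mix 3, 31181.5 on mix 4 and 6923.3 to 12778.8 elsewhere. The 11 include ALAS1, brightest on mix 1 at 1184.3, which was matched for the listed ALAS2 and may not mark this lineage. All 5 cartilage markers led on mix 3 (42636 against 56.9 to 573.4) and all 6 brain markers on mix 4 (20483.7 against 70.5 to 488.3). A 4-fold lead on mix 3 was held by 0.522% of all genes, and on mix 4 by 3.07%. None of the 10 tested B and T lymphocyte markers, of 13 on the arrays, was brightest on mix 3 or mix 4. Over all genes 13.1% were brightest on mix 3, and the share for mix 4 was not counted. Nothing is therefore read from that absence. Of the 10, 9 were brightest on mix 1, for which the share of all genes was not counted either. Their summed signal was 14189.1 on mix 1, 10804 on mix 2, 9388.2 on mix 3 and 2793.3 to 4708.6 elsewhere. JCHAIN, on this list, gave 5727.9 on mix 1 and 5314.9 on mix 3, too close to be ordered. The part of these cells in the defensin signals was not tested.

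Other antimicrobial proteins were mixed in their profiles. Of 34 names 13 were on the arrays and 11 were tested, of which 6 had their highest value on mix 3. Over all genes the share was 13.1%. For LECT2 (0.73), LYG2 (0.40), CTSG and CTSC the lead was under the spike-ins' largest difference, so mix 3 is not ordered against the next array. LYZ, lysozyme, had the list's only 4-fold lead, at 4223.3 on mix 3 against 962.9 on mix 4 and 129.8 to 366.1 elsewhere. CATH1 and LECT2, whose values are given above, were the 2 of the list with mix 3 and mix 4 both at least 4-fold above the other arrays. Of all genes 0.342% had that pattern. The cathepsin genes had small leads. CTSG gave 261 to 928 and CTSC 1482.2 to 2242.1, with leads on mix 3 of 0.34 and 0.29 on the log2 scale.

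Genes that sense microbes and carry the signal were mixed in their profiles. Of 29 tested genes of this kind 0 had mix 3 and mix 4 both 4-fold above the rest, and 0 had liver and mix 2 so, beside 0.342% and 0.197% of all genes, so the zeros say nothing particular about the list. On mix 3 5 were brightest and on liver 3, beside 13.1% and 6.81% of all genes. A further 11 were brightest on mix 1 and 9 on adipose. The share of all genes was not counted for those arrays, so nothing is read from the 11 and 9. Only CCL20, a chemokine whose human receptor CCR6 also binds beta-defensins, had a 4-fold lead, on mix 1 (460.6 against at most 56.3). TLR2A, a receptor for bacterial lipoproteins, gave 597 on mix 3, 281.4 on adipose and 166.9 on mix 4, and the NF-kB subunit gene NFKB1 gave 268.9 to 519.5.

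Some of these probe sets may bind more than 1 transcript. Of the 9 member probe sets 4 end in s_at, the ending for probes that match more than 1 transcript, which are those of AvBD5, AvBD9 and AvBD10 and the brighter one of AvBD8. The fainter one of AvBD1 ends in x_at. Among the defensins that are not members, the probe sets used for AvBD4, AvBD6, AvBD7 and AvBD12 also end in s_at. Defensin genes are paralogs, and the part of cross-binding in their signals and in the likeness of their profiles was not tested.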

How the data were processed

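Total RNA of 6 samples was labelled as biotin cRNA and hybridised to 1-colour Affymetrix chicken arrays, per the labels' protocols. The deposited values are signal intensity of each probe set on a linear scale, which the authors computed with MAS5, per the submitters' processing notes. No source used here gives its version or scaling target, and detection calls were not used.

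From these, 96 control probe sets of 38535 were left out, values were turned into log2(signal + 13.3) without further scaling, and probe sets with a signal over the pooled median of 44.1 on 1 or more arrays were kept (25958, naming 11679 genes). Probe sets with 1 symbol in the platform table were named (27178; 177 had several). For each gene the probe set with the highest mean signal was used. Groups were taken from sample titles. A call means at least 4-fold. No test of a difference between samples was run, as adipose and liver have 1 array each. The members and gene lists were also chosen with earlier results of these data known. Named genes are all members, the 3 nearest profiles of each, list members with a 4-fold lead, and some list members under 4-fold. The last were not picked by a fixed rule. List names missing from the platform table were matched through RefSeq synonyms. Some matches may be another gene than the one meant, as with ALAS1 for ALAS2 and SH2D6 for BLNK. ALB, PLIN1, SPI1, MMP9, S100A12, CTSB, TRAM2, CTSG, CTSC, TLR2A, NFKB1, LEAP2, GNLY and LBP were singled out after their values were seen. So were JCHAIN, PTPRC, CSF2RA, NCF1C, RAC2, CYBB, HBAD, HBE and LYG2. The steps were checked on simulated data. Promoter and protein sequences were not analysed here. Python 3.11.15, numpy 2.4.6, pandas 2.3.3 and scipy 1.17.1 were used. The number of arrays limits the precision.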

Additional observations from a re-analysis of the deposited data

How the results depend on the processing

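The counts of members were recomputed with a pseudocount of 1, the pooled median as pseudocount or floor, quantile, trimmed-mean and spike-in scaling, the mean of all probe sets and no filter, and under each of these 3 members had a 4-fold lead, 4 were 4-fold higher on liver, 4 were 4-fold lower on adipose and 0 crossed the line the other way. The lead count was 4 at 2-fold and 2 at 8-fold, and 3 with members found by symbol alone. Leaving out 1 mix at a time moved the lead count between 3 and 6 (an alternative chosen after seeing the data), the count lower on adipose between 2 and 4, and the count lower on liver between 0 and 1, with 4 higher on liver and 0 higher on adipose each time. No member changed its brightest array under the 3 other scalings. On liver, 25.2% of the calls over all genes were higher as deposited, against 46.8% with quantile, 44.3% with trimmed-mean and 30.2% with spike-in scaling, and the median gene moved from -0.75 to -0.09, -0.23 and -0.60. No paired analysis was possible because adipose and liver have 1 array each and share no replicate numbers with the mixes beyond the first. Faint signals (AvBD5, AvBD13) depend on the pseudocount, and no sample has a replicate.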

Other observations

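Some host defence genes outside the defensin family had profiles that the defensins did not share. LEAP2, a liver-expressed antimicrobial peptide, gave 1466.4 on liver and 1241.2 on mix 1, and 13.6 to 52.5 on the other 4 arrays. GNLY, a granulysin-type peptide of lymphocytes, was brightest on mix 1 at 7126.6, with 715.4 to 3703.1 elsewhere. LYG2, a goose-type lysozyme, was bright on mix 3 (9577.5) and liver (7255.4) and gave 330.1 on mix 2. LBP, which binds bacterial lipopolysaccharide, was highest on liver at 2904.2, with 426 to 1283.9 on the other arrays. All 9 member probe sets were also screened, on the log2 scale, for 1 mix standing far from the other 3. Of them 0 passed Dixon's 95% critical value, beside 7.02% of all tested probe sets. With a share that low, and with mixes that are not replicates, nothing is read from this about the members.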
